A study of Mus musculus with 4 samples.

Results

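Vomeronasal receptor genes, those whose symbol starts with Vmn1r or Vmn2r, were followed in RNA-seq libraries of mouse mTEChi, the medullary epithelial cells of the thymus that display much MHC class II. Symbols of the RefSeq IDs in the deposited count tables gave 356 RefSeq IDs of 354 genes, 231 Vmn1r and 123 Vmn2r, among 30794 IDs in all. Vmn2r29 and Vmn2r89 each had more than 1 ID, and the ID with the highest mean count stands for each gene unless stated. The 1442 IDs without a symbol were not searched for further receptors.

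The study compared mTEChi of wild-type (WT) C57BL/6 (B6) mice with those of Aire-KO mice carrying the allele tm1.1Doi on a B6 background (B6.129S2), all 4 weeks old and otherwise untreated. Aire is the transcriptional regulator that lets mTEChi express genes of peripheral tissues. Each of the 4 libraries was made from cells sorted as CD45-, Ly51- and I-A/E high from pooled thymi of 4 mice, with 1 WT and 1 Aire-KO library in a first experiment (replicate 1) and again in a replicate experiment (replicate 2). A single pool per library means that the spread between replicates is a spread between pools, and fewer cells expressing a gene cannot be told apart from less RNA per cell.

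Vomeronasal receptors are G protein-coupled receptors of the vomeronasal organ, which detects pheromones and other chemical cues. Receptors of the V1R family (Vmn1r) are found in apical neurons with the G protein subunit Gnai2, and those of the V2R family (Vmn2r) in basal neurons with Gnao1. A neuron usually carries 1 V1R, or 1 V2R together with a broadly expressed V2R of family C, and both kinds signal through the channel Trpc2. Basal neurons also express non-classical MHC class I molecules (H2-Mv), and some vomeronasal neurons carry formyl peptide receptors instead.

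Taken over all RefSeq IDs, the WT libraries held 191404483 and 111077552 counts and the Aire-KO libraries 168899954 and 242862323. A single count was thus worth between 0.00412 and 0.009 CPM (counts scaled to a common library size) before TMM factors. Reads in exons shared by several IDs of a gene stand under each, so these totals are not numbers of reads. With 1 ID per gene with a symbol, WT replicate 1 held 134927587 counts. Depth below refers to the totals over all IDs. Reads over Aire were more numerous in the Aire-KO libraries (200697 and 175884) than in the WT libraries (87229 and 36597), and since the sources used here do not name the deleted exons, these counts do not check the labels. The 10 mTEChi marker genes were all detected, with none called between genotypes (5 lower in WT with the experiment as a replicate block, Aire among them) and summed levels of 11850 and 18170 CPM in WT against 20840 and 24440 CPM in Aire-KO. Of genes marking other cells in a sort, none of 8 thymocyte genes was called (3 higher with the block; 30.3 and 53.0 CPM in WT, 28.9 and 38.4 in Aire-KO), 1 of 7 dendritic cell and macrophage genes was higher in WT (also 1 with the block; 302 and 549 against 361 and 374 CPM), none of 5 cortical epithelial genes was called (1 lower with the block; 206 and 271 against 185 and 237 CPM), and 2 of 6 fibroblast genes were lower in WT (4 with the block; 127 and 102 against 286 and 249 CPM). For comparison, 5.58% of all tested IDs were higher and 0.258% lower in WT, and 16.5% and 10.4% with the block. No gene of these lists was at 0 in every library, and their part in the results below was not tested.

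Detection of the receptors was highest in the WT libraries. A gene was taken as detected in a library at 3 or more counts. Of 231 Vmn1r genes, 95 (41.1%, exact 95% interval 34.7 to 47.8) and 35 (15.2%, 10.8 to 20.4) were detected in WT replicates 1 and 2. In Aire-KO replicates 1 and 2 the numbers were 13 (5.63%, 3.03 to 9.43) and 4 (1.73%, 0.474 to 4.37). Both WT shares lay above both Aire-KO shares. The intervals describe each share alone and take genes as independent, which receptors with shared reads are not, so they do not test the genotypes. Some near-identical Vmn1r genes of chromosome 7 held the same few counts. Vmn1r107, Vmn1r130 and Vmn1r155, for example, each held 3 and 3 counts in WT and 1 and 1 in Aire-KO. The same reads may thus stand under several genes, and such repeats were kept in the shares, sums and chromosome totals. Fragments may also give more than 1 count, because the paired reads were trimmed and joined into single-end reads.

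Of 123 Vmn2r genes, 85 (69.1%, 60.1 to 77.1) and 48 (39.0%, 30.4 to 48.2) were detected in the WT libraries, and 35 (28.5%, 20.7 to 37.3) and 25 (20.3%, 13.6 to 28.5) in the Aire-KO libraries. The shares were again higher in both WT libraries.

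The libraries differed in depth, so the number expected at 3 or more counts was computed for each library at the depth of WT replicate 2, the smallest. At that depth 26.2% and 15.2% of Vmn1r genes were expected in the WT libraries, against 3.98% and 0.531% in the Aire-KO libraries. For Vmn2r genes the expected shares were 56.7% and 39.0% in WT and 18.9% and 11.6% in Aire-KO. The order of the libraries by genotype was therefore kept at equal depth. The 1106 olfactory receptor genes (Olfr), the chemoreceptors of the main olfactory epithelium, gave 36.7% and 19.4% in WT and 10.5% and 5.52% in Aire-KO by the same measure. Over all 23003 genes with a symbol the shares were 90.8% and 87.8% in WT and 82.5% and 79.5% in Aire-KO. No test of the difference between these gene families was made.

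**Figure D1:**
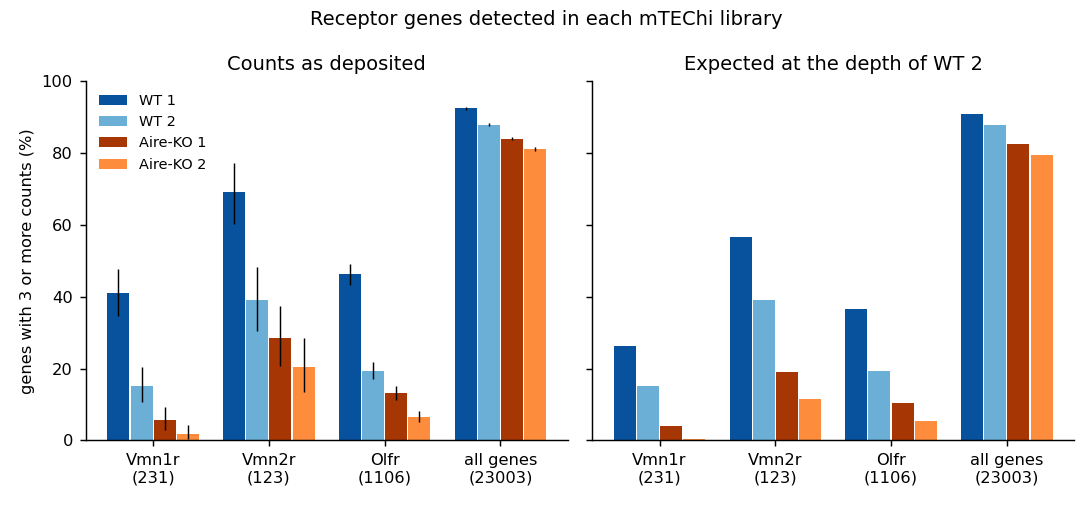
Bars give the percentage of genes with 3 or more counts for Vmn1r, Vmn2r, Olfr and all genes with a symbol in each of the 4 libraries, as deposited with exact 95% binomial intervals (left) and computed for the depth of WT replicate 2 (right). In both panels the 2 WT bars of each receptor family stand above the 2 Aire-KO bars, for example 26.2% and 15.2% against 3.98% and 0.531% for Vmn1r on the right.

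Most receptors detected in WT replicate 2 were also detected in WT replicate 1, the deeper library. Of the receptor genes detected, 180 in WT replicate 1 and 83 in WT replicate 2, 76 were shared, 42.2% of the first and 91.6% of the second. In Aire-KO replicates 1 and 2, 48 and 29 were detected and 20 were shared, 41.7% and 69.0% of each.

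Counted gene by gene, 283 of the 354 receptors had at least 1 count in some library, and 62 Vmn1r and 9 Vmn2r genes had none. Counts were found in WT libraries alone for 107 Vmn1r and 48 Vmn2r genes, and in Aire-KO libraries alone for 5 and 6. The genes with counts in WT alone were 54.8% of the receptors with a count, against 8.16% of all genes with a count. In 28 genes, 15 Vmn1r and 13 Vmn2r, both WT libraries held 3 or more counts and neither Aire-KO library held any (9.89% of receptors with a count, against 2.98% of all genes with a count). These shares over all genes include genes with far more reads, in which a count of 0 is rarer. Their summed WT counts ranged from 8 to 144 with a median of 18, so most rested on few reads.

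Both WT libraries lay above both Aire-KO libraries in CPM for 86 of the 283 receptors with a count (30.4%), and this was 29.4% over all genes with a count, a share near that of the receptors. Both WT libraries lay below both Aire-KO libraries for 4 (1.41%), against 17.5% over all genes. Those 4, named here after their values were seen, were Vmn2r25, Vmn2r62, Vmn2r63 and Vmn2r87. Lying below requires a count in both Aire-KO libraries. In Aire-KO replicate 2 only 62 of 354 receptors held any, against 18940 of 23003 genes with a symbol. Lying above requires a count in both WT libraries, and 129 receptors held any in WT replicate 2. Few reads thus limit both shares among receptors, and genes with similarly few reads were not compared.

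The summed level of all Vmn1r genes was 4.72 and 2.99 CPM (scaled by TMM factors) in the WT libraries and 1.07 and 0.183 CPM in the Aire-KO libraries, 3.86 ± 1.23 against 0.628 ± 0.630 (SD, n = 2). The groups did not overlap, and the level was 4.40 times as high in WT in the first experiment and 16.4 times in the replicate experiment. The ratio of the means was 6.14 and became 21.1 without Aire-KO replicate 1 and 3.59 without Aire-KO replicate 2. The summed level of Vmn2r genes was 8.50 and 4.48 CPM in WT and 7.31 and 2.27 CPM in Aire-KO, 6.49 ± 2.85 against 4.79 ± 3.57. These groups overlapped, with ratios of 1.16 and 1.98 within the experiments. The ratio of the means, 1.36, turned to 0.936 without WT replicate 1 and to 0.888 without Aire-KO replicate 2. With 2 libraries against 2, an exact two-sided permutation test cannot go below p = 0.333, and the sums were not tested.

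The families differed in how their reads were spread over genes. The Vmn1r gene with most counts in a library gave 10.3% and 10.7% of the family's counts in WT (Vmn1r181 in both). In Aire-KO it gave 28.8% and 26.2% (Vmn1r21 in both). The leading Vmn2r gene gave 14.9% and 11.6% in WT (Vmn2r3) and 50.3% and 38.2% in Aire-KO (Vmn2r57). Without Vmn2r57 the ratio of the mean summed Vmn2r levels rose from 1.36 to 2.31.

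**Figure D2:**
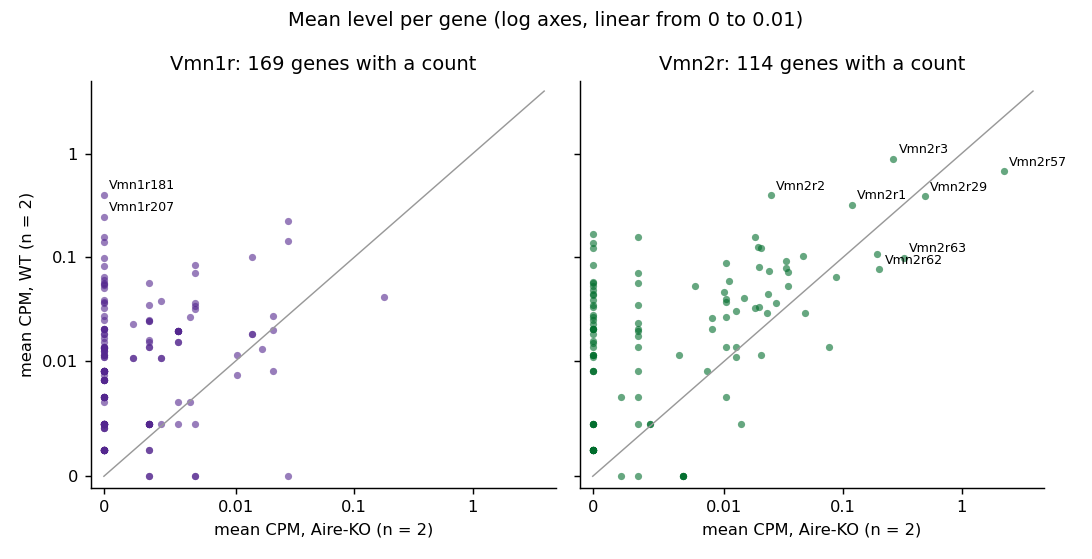
Each point is a receptor gene with at least 1 count, plotted by its mean CPM in Aire-KO (x axis) and in WT (y axis, n = 2 libraries each), on log axes that are linear from 0 to 0.01, with the line of equality. Most of the 169 Vmn1r points lie above the line or on the left edge, where Aire-KO held no count, whereas Vmn2r57, Vmn2r62 and Vmn2r63 lie below it.

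Single genes were compared by the quasi-likelihood test of edgeR over all 26790 RefSeq IDs that passed a filter on low counts. Only 27 of the 356 receptor IDs passed that filter, which a receptor with few reads could pass only through the group where its counts were high. Of these 27, 2 (7.41%) were higher in WT at a Benjamini-Hochberg adjusted p under 0.05, which 5.58% of all tested IDs were. None was lower in WT (0.258% of all tested IDs were), none had an unadjusted p under 0.05 in that direction, and DESeq2 called none lower either. In this fit the share called higher among receptors was thus near that of all genes. DESeq2 called 7 of the 27 receptor IDs higher, a larger share than the 12.8% of all tested IDs that it called higher. With the experiment as a replicate block, edgeR called 4 of the 27 higher and 1 lower. Of all tested IDs, 16.5% were higher and 10.4% lower with the block.

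The IDs called were Vmn1r181 and Vmn1r207, both V1R genes. Vmn1r181 (chromosome 7 of mm9, 24768980 to 24770059, plus strand) held 106 and 38 counts in the WT libraries and none in the Aire-KO libraries. Its level was at least 23.8-fold higher in WT against a floor of 3 counts per Aire-KO library (adjusted p = 0.0381, edgeR). The fitted log2 fold change was 9.17 (SE 1.55), which depends on the prior count and is no bound. Vmn1r207, on chromosome 13, held 56 and 28 counts in WT and none in Aire-KO, at least 14.6-fold higher (adjusted p = 0.0469, edgeR). Since neither gene held a count in Aire-KO, every WT library lay above every Aire-KO library, which adds nothing to these calls. Neither was called without WT replicate 1, and Vmn1r207 was also not called without WT replicate 2 or without the filter on low counts (adjusted p = 0.0518, edgeR).

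The window of Vmn1r181 from 250 bases before to 50 bases after its annotated start (RefSeq, GRCm38.p6, chr7:23983711-23984010, plus strand) is shown because this V1R gene had the highest mean CPM in WT. It held neither the TATA element TATAAA nor the homeodomain core TAATTA on either strand.
Vmn1r181: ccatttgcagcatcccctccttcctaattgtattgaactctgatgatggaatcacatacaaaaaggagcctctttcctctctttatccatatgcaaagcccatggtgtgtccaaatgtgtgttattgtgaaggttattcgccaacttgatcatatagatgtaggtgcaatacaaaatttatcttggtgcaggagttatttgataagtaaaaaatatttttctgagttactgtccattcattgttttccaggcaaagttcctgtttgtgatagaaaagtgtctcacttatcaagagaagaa

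Among the 318 receptors with such a window, TATAAA was present in 42.4% of 205 Vmn1r windows and 23.0% of 113 Vmn2r windows, against 13.6% of 32851 windows of all genes. TAATTA, which reads the same on both strands, was present in 7.32%, 17.7% and 5.29%. The median GC content was 36.0% for Vmn1r, 38.3% for Vmn2r and 52.7% for all windows. Many RefSeq entries of these families begin at the coding part, so the window can lie downstream of the true start.

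The reads of Vmn1r181 lay in its annotated 5′UTR (151 bp, 11 counts in WT replicate 1 and none in replicate 2) and in its last exon (937 bp, 90 and 33 counts). Both features held no count in either Aire-KO library. Over the 26 Vmn1r IDs with an annotated 5′UTR and 3′UTR, the 5′UTR held 6.89 and 1.60 reads per kb in WT and 0.535 and 0 in Aire-KO. The last exon of the same IDs held 9.08 and 2.87 reads per kb in WT and 0.820 and 0.0879 in Aire-KO. Reads were thus found in the annotated 5′UTR as well as in the last exon, which joins coding sequence and 3′UTR here, at a lower density in the 5′UTR. Only reads lying wholly within a feature were counted, so the shorter 5′UTRs can lose a larger part of their reads.

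Vmn1r51 (V1ra family, chromosome 6 of mm9 from 90072637 to 90080984, plus strand) was the only receptor with a d3′UTR, the part of the last exon beyond a proximal polyadenylation site. It held 27 and 23 counts in WT and none in Aire-KO, at least 9.39-fold higher, but was not called (adjusted p = 0.0624, edgeR). The part of the last exon upstream of the site (1235 bp) held 11 and 14 reads in WT, and the d3′UTR (307 bp) held none in any library. The ratio of reads per bp, d3′UTR over upstream part, was therefore 0 in both WT libraries, with upper 95% limits of 1.60 and 1.21. Both limits lie above 1, so equal density in the 2 parts could not be told from absence at this depth.

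Vmn1r21, with the lowest log2 fold change of the tested receptors, held 18 and 0 counts in WT and 45 and 11 in Aire-KO. The Aire-KO library was higher within each experiment, while the groups overlapped, and the gene was not called (log2 fold change −1.99, SE 1.58, adjusted p = 0.588, edgeR).

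By V1R subfamily, read from the letters in the genes' older synonyms for 126 genes, the WT library held more counts than the Aire-KO library of its experiment wherever either held any. The 31 V1rc genes held 210 and 46 counts in WT and 74 and 14 in Aire-KO, and 192 and 46 against 29 and 3 without Vmn1r21. The 19 V1rd genes held 189 and 78 against 10 and 4. V1ra (8 genes) held 83 and 40 against 9 and 0, V1re (13) held 77 and 22 against 4 and 0, and V1rf (5) held 52 and 18 against 16 and 0. The 21 V1rh genes held 42 and 17 against 2 and 0, and the 6 V1rb genes 33 and 14 against none. Counts were few for the rest. V1rg (11 genes) had 25 counts, all in WT replicate 1, V1ri (9 genes) had 14 and 3 against 6 and 0, and the V1rj and V1rk genes (2 and 1) had none.

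Family C of the V2R genes, Vmn2r1 to Vmn2r7 on chromosome 3, encodes receptors found together with other V2Rs in basal neurons, and it is described as a group chosen after its values were seen. The 7 genes together held 616 and 156 counts in the WT libraries and 99 and 45 in the Aire-KO libraries, or 2.81 and 1.31 against 0.681 and 0.196 CPM. Both WT sums lay above both Aire-KO sums, 4.13 times as high in the first experiment and 6.69 times in the replicate experiment.

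Vmn2r3 (chromosome 3 of mm9, 64062883 to 64091339, minus strand) had the highest mean CPM of all receptors in WT, 277 and 62 counts in WT and 64 and 21 in Aire-KO. Per length this was 0.474 and 0.195 RPKM (reads per kb on the scale of CPM) in WT and 0.165 and 0.0342 RPKM in Aire-KO. The groups did not overlap, but the difference was not called (log2 fold change 1.76, SE 0.96, adjusted p = 0.386, edgeR). By the same measure Vmn1r181 reached 0.445 and 0.293 RPKM in WT, so that these 2 levels overlapped.

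Vmn2r2 held 111 and 34 counts in WT and 4 and 5 in Aire-KO, a log2 fold change of 3.99 (SE 0.96). It narrowly missed the threshold (adjusted p = 0.0639, edgeR) and passed it with the replicate block (adjusted p = 0.0424). Vmn2r7 held 37 and 20 counts in WT and none in Aire-KO, and behaved likewise (adjusted p = 0.0579 without and 0.0445 with the block, edgeR). Vmn2r1 held 115 and 14 counts in WT and 25 and 15 in Aire-KO. In that gene WT replicate 2 overlapped the Aire-KO libraries, and no difference was called (adjusted p = 0.547, edgeR).

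The remaining genes of family C also had more counts in WT. Vmn2r4 held 38 and 17 against 4 and 2, Vmn2r5 held 16 and 4 against 1 and 2, and Vmn2r6 held 22 and 5 against 1 and 0. Vmn2r5 and Vmn2r6 did not pass the filter, and Vmn2r4 was not called (adjusted p = 0.160, edgeR). These genes share sequence. Of 2239 exonic windows of 50 bases in Vmn2r6, the read length, 1344 also occur in Vmn2r7, and 828 of the windows of Vmn2r7 occur in Vmn2r4, so the division of reads among these 3 genes is uncertain.

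**Figure D3:**
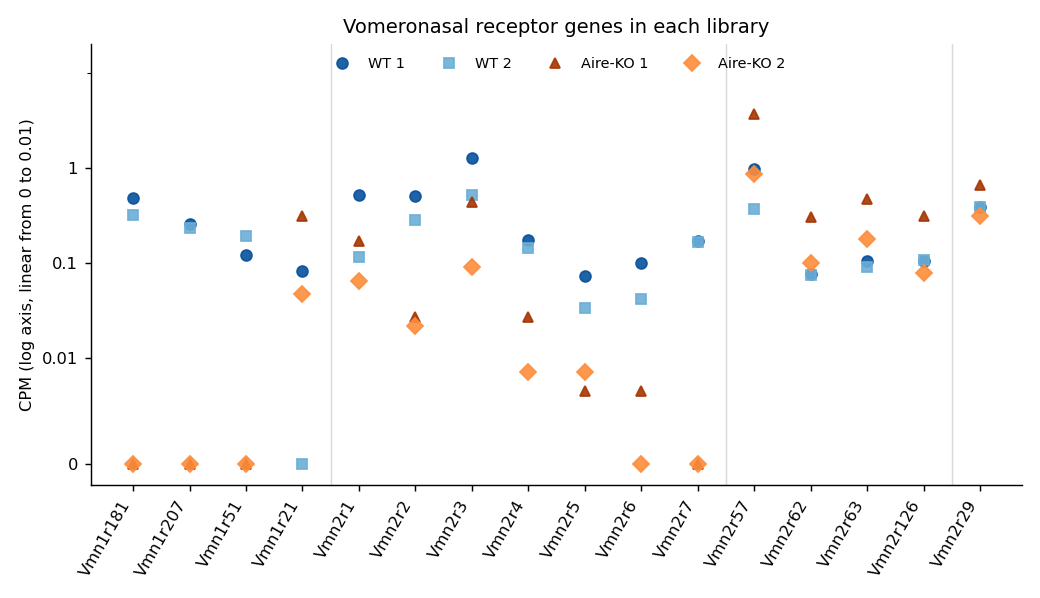
CPM of 16 receptor genes in each of the 4 libraries (points; log axis, linear from 0 to 0.01), with V1R genes, family C, the Vmn2r57 group and Vmn2r29 separated by grey lines. Vmn1r181, Vmn1r207, Vmn1r51 and Vmn2r7 are at 0 in both Aire-KO libraries, and in Vmn2r57, Vmn2r62 and Vmn2r63 the Aire-KO library lies above the WT library of the same experiment.

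A small group of V2R genes on chromosome 7 went the other way. Vmn2r57 (48655102 to 48704011, minus strand) held 215 and 44 counts in WT and 534 and 199 in Aire-KO, the highest count of any receptor in both Aire-KO libraries. Its level was 0.982 and 0.369 CPM in WT and 3.67 and 0.866 CPM in Aire-KO. The Aire-KO library was higher within each experiment, whereas WT replicate 1 lay above Aire-KO replicate 2. The log2 fold change was −1.74 (SE 0.87, adjusted p = 0.339, edgeR), and −1.58 (SE 0.53) with the replicate block, where it was called (adjusted p = 0.0441, edgeR). It was also called without Aire-KO replicate 2, with a log2 fold change of −2.44. Its exons overlap those of Gm20449, a transcript that reads through several genes, and a library that does not mark strand cannot separate them.

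Vmn2r63 held 23 and 11 counts in WT and 69 and 41 in Aire-KO (log2 fold change −1.71, SE 0.91, adjusted p = 0.371, edgeR). Vmn2r62 held 17 and 9 counts in WT and 44 and 23 in Aire-KO (−1.38, SE 0.98, adjusted p = 0.534, edgeR). In both, the Aire-KO libraries lay above the WT libraries, and neither difference was called. Together the 3 genes held 255 and 64 counts in WT and 647 and 263 in Aire-KO. Vmn2r126, on the same chromosome, held 23 and 13 counts in WT and 45 and 18 in Aire-KO, with overlapping groups in CPM (log2 fold change −0.84, adjusted p = 0.752, edgeR).

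The exons of Vmn2r57 share 657 of 2298 windows of 50 bases with Vmn2r63 and 563 with Vmn2r62, and Vmn2r62 and Vmn2r63 share 810. Only 8.16% of the windows of Vmn2r62 occur once in the genome, against 55.0% for Vmn2r63 and 64.2% for Vmn2r57. How reads that match several places were counted is not given in the sources used here, so whether these genes moved independently was not tested.

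The likeness extended to the region before their annotated starts (RefSeq, GRCm38.p6). Windows of 300 bases are shown for Vmn2r57 (chr7:41448592-41448891, minus strand), Vmn2r62 (chr7:42793447-42793746, minus strand), Vmn2r63 (chr7:42933740-42934039, minus strand) and Vmn2r126 (chr7:43018548-43018847, plus strand), because they let the 4 genes be compared. Capitals mark the longest run common to the first 3, of 52 bases.
Vmn2r57: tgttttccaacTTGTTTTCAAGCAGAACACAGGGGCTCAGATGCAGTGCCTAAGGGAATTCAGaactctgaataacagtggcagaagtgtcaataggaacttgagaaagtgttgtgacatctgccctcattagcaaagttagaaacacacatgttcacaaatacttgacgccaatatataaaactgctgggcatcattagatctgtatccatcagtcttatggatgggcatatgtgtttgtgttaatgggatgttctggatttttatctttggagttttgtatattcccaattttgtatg
Vmn2r62: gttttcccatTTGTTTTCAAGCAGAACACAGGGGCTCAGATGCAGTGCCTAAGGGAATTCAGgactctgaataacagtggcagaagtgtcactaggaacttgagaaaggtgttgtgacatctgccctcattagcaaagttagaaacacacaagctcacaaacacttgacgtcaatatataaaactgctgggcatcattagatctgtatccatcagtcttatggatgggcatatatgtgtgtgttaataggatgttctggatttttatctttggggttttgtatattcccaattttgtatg
Vmn2r63: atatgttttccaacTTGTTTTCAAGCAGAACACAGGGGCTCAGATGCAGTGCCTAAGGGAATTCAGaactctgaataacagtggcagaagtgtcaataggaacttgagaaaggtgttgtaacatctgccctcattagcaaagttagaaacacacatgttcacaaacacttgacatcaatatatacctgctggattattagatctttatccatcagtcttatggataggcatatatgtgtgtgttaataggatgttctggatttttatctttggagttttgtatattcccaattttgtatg
Vmn2r126: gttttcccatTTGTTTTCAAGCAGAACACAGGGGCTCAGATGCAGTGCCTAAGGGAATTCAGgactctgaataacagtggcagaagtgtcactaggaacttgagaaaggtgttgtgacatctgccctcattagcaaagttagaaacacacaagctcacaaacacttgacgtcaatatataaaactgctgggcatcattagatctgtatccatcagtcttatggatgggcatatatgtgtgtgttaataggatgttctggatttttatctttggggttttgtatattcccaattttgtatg

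Of the other 110 Vmn2r windows, 1 held that run, and it belonged to Vmn2r126, whose window was identical to that of Vmn2r62 over all 300 bases. The longest run shared with Vmn2r57 had a median of 9 bases among those 110. Vmn2r57 and Vmn2r63 shared a run of 109 bases. Vmn2r57, Vmn2r62, Vmn2r63 and Vmn2r126 were named by the rule that takes the 6 receptors with the highest mean CPM in Aire-KO. Vmn2r29 and Vmn2r3 complete these 6. That level was thus a ground for naming the genes and not a result separate from the shared run. Vmn2r57, Vmn2r62 and Vmn2r63 also share exonic windows, so their levels may rest on the same reads. Whether the run goes with the level in Aire-KO was not tested.

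Vmn2r29 was not called under either of its IDs, whose fold changes had opposite signs. The non-coding ID held 86 and 46 counts in WT and 96 and 72 in Aire-KO (log2 fold change −0.32, SE 0.74, adjusted p = 0.889, edgeR), and the coding ID 32 and 11 against 16 and 15 (0.46, SE 0.92, adjusted p = 0.866, edgeR). Only 9.14% of its windows occur once in the genome, and 1628 of 2265 also occur in Vmn2r46.

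By chromosome, the 54 Vmn2r genes on chromosome 7 held 630 and 208 counts in WT and 847 and 406 in Aire-KO. Without Vmn2r57, Vmn2r62 and Vmn2r63 the other 51 held 375 and 144 counts against 200 and 143, or 1.71 and 1.21 CPM in WT and 1.38 and 0.622 CPM in Aire-KO, with overlapping groups. The 30 Vmn2r genes on chromosome 17 held 178 and 48 against 10 and 4, and the 11 on chromosome 5 held 149 and 34 against 27 and 12. The 8 on chromosome 10 held 72 and 27 against 44 and 12. Outside Vmn2r1 to Vmn2r7 and the Vmn2r57, Vmn2r62 and Vmn2r63 group, the remaining 113 Vmn2r genes summed to 4.53 and 2.64 CPM in WT and 2.17 and 0.926 CPM in Aire-KO, without overlap. Both groups were set apart after their values were seen, and the second was higher in Aire-KO within each experiment. The lack of overlap thus depends in part on that choice, and over all 123 Vmn2r genes the libraries overlapped. Vmn1r genes were higher in WT on each of their large chromosomal groups. The 126 on chromosome 7 held 480 and 166 counts against 40 and 26. The 51 on chromosome 6 held 335 and 107 against 85 and 16, and the 36 on chromosome 13 held 130 and 48 against 15 and 0.

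**Figure D4:**
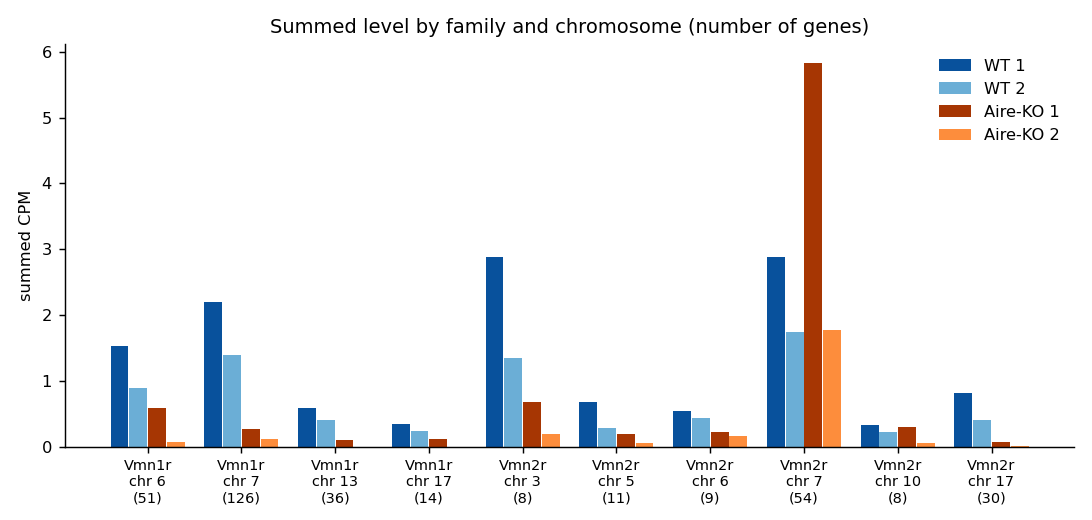
Bars give the summed CPM of the Vmn1r and Vmn2r genes of each chromosome with 8 or more of them, in each of the 4 libraries, with the number of genes in brackets. In the group of 54 Vmn2r genes on chromosome 7 the Aire-KO replicate 1 bar is the highest, with 647 of its 847 counts from Vmn2r57, Vmn2r62 and Vmn2r63, and in each Vmn1r group both WT bars stand above both Aire-KO bars.

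Receptor genes resemble one another, so reads may fit several of them. Among members with a locus in the mm9 annotation, the median share of exonic 50-base windows that occur once in the genome was 81.3% for 200 Vmn1r genes and 64.4% for 118 Vmn2r genes. All 22 Vmn1r genes with no such window held counts, so reads with several matches entered the tables. The 70 Vmn1r genes with more than 90% of windows occurring once held 515 and 155 counts in WT and 93 and 11 in Aire-KO. The higher WT counts were therefore also present among Vmn1r genes whose windows mostly occur once. The 13 Vmn2r genes with more than 90% of windows occurring once held 160 and 33 counts in WT and 15 and 12 in Aire-KO. Windows were compared by exact matches only, so likeness with mismatches was not measured.

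Genes that serve these receptors in the vomeronasal organ were examined as lists. Of 13 vomeronasal transduction genes, all were tested, 1 was higher in WT and none was lower, with a median log2 fold change of 0.43 against −0.03 over all tested IDs. With the replicate block, 2 were higher and 2 were lower. Over all tested IDs 5.58% were higher without the block, and 16.5% were higher and 10.4% lower with it, so these counts are near the background. Trpc2, the channel both receptor families signal through, held 969 and 477 counts in WT and 373 and 522 in Aire-KO (4.43 and 4.00 against 2.57 and 2.27 CPM), without overlap in CPM and without being called (adjusted p = 0.389, edgeR). Gnao1, the V2R-coupled subunit, was at 4.97 and 6.07 CPM in WT and 4.41 and 4.00 CPM in Aire-KO (adjusted p = 0.709, edgeR). Gnai2, the V1R-coupled subunit, was at 154 and 240 CPM in WT and 171 and 339 CPM in Aire-KO, with overlapping groups (adjusted p = 0.768, edgeR). Gnai2 is also widely used outside sensory neurons.

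Calr4, a calreticulin found in vomeronasal neurons, was the gene of that list called higher in WT. It held 630 and 112 counts in WT and 11 and 14 in Aire-KO, a log2 fold change of 4.80 (SE 0.85, adjusted p = 0.0344, edgeR). Ano2, a calcium-activated chloride channel, was higher with the block (adjusted p = 0.00656, edgeR) and not without it (0.0685), at 3.15 and 2.90 CPM in WT against 0.571 and 0.813 CPM. Kcnj3 and Kcnn3 were lower in WT with the block (adjusted p = 0.000972 and 0.03275, edgeR) and not called without it (0.141 and 0.315). Kcnj3 was at 9.07 and 5.71 CPM in WT against 44.45 and 12.8 CPM in Aire-KO.

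Several vomeronasal MHC genes were higher in WT. Of 9 H2-Mv genes tested, 4 were higher in WT and none was lower, and 5 were higher with the block. Among all tested IDs 5.58% were higher and 0.258% lower, and 16.5% were higher with the block. H2-M10.5 held 1435 and 877 counts in WT and 30 and 23 in Aire-KO (log2 fold change 5.52, SE 0.62, adjusted p = 0.0176, edgeR). H2-M1 held 501 and 447 against 2 and 0, H2-M11 held 196 and 193 against 2 and 0, and H2-M9 held 171 and 106 against none. H2-M10.1 did not share this direction in the first experiment, with 867 and 570 counts in WT and 1727 and 745 in Aire-KO (adjusted p = 0.605, edgeR).

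Of 7 formyl peptide receptors on the list, 6 were in the tables and 2 passed the filter. Fpr2 held 67 and 51 counts in WT and none in Aire-KO and was called (adjusted p = 0.0393, edgeR). Fpr1 held 142 and 13 counts in WT and none in Aire-KO (adjusted p = 0.0631, and 0.0123 with the block, edgeR). Without a count in Aire-KO, both passed the filter only through WT and could be called only in that direction. Of all tested IDs 5.58% were higher in WT, and 16.5% with the block. The other receptors of the list held few or no counts. Fpr-rs3 and Fpr-rs6, receptors of vomeronasal neurons, had no count in any library, and Fpr-rs4 had 10 counts in WT replicate 2 alone. Fpr3 held 2 and 3 counts in WT and none in Aire-KO. Which cells gave the Fpr1 and Fpr2 reads was not tested.

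Of 12 transcription factors of vomeronasal neurons or their precursors, 1 was higher in WT and none was lower, and with the block 4 were higher and 1 was lower. The single call is near the 5.58% of all tested IDs, of which 16.5% were higher and 10.4% lower with the block. Neurod1, a factor of neuronal differentiation, was the one called, with 294 and 115 counts in WT and 12 and 30 in Aire-KO (adjusted p = 0.0483, edgeR). Tfap2e, which maintains basal vomeronasal neurons, held 351 and 155 counts in WT and 24 and 4 in Aire-KO and was called with the block (adjusted p = 0.0846 without it and 0.00344 with it, edgeR). Omp, the marker of mature chemosensory neurons, was at 37.5 and 73.5 CPM in WT and 32.2 and 46.8 CPM in Aire-KO, with overlapping groups (adjusted p = 0.661, edgeR).

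For the 10 genes of olfactory transduction, 1 was higher in WT and none was lower (6 and 0 with the block). Rtp1, which carries olfactory receptors to the cell surface, held 272 and 169 counts in WT and 1 and 0 in Aire-KO (adjusted p = 0.0202, edgeR). Among 10 sensory neuron genes, 1 was higher (Gap43), and among 8 general neuronal genes, 1 was higher (Nefl), with none lower in either list. With the block these became 2 higher among the sensory neuron genes, and 3 higher and 1 lower among the general neuronal genes. The single calls without the block are near the 5.58% of all tested IDs called higher. With the block, 16.5% of all tested IDs were higher and 10.4% lower. The summed level of the sensory neuron genes was 99.8 and 177 CPM in WT against 89.5 and 106 CPM in Aire-KO.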

How the data were processed

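RNA-seq counts were analysed from 2 WT and 2 Aire-KO mTEChi libraries. Per the labels and the study's methods, the authors used polyA-selected RNA and an unstranded TruSeq kit, cut and concatenated the paired reads (100 bp) to a single-end format of 50 bp, applied the CASAVA filter, aligned to mm9 by Bowtie 1.0.0 and, using bedtools, counted the reads lying wholly within RefSeq exons. Raw counts per RefSeq ID and per feature were deposited. Normalized values were computed here. Symbols came from the RefSeq table of GRCm38.p6, positions and exons from GENCODE vM1 on mm9 (318 of 354 genes), and promoter sequences from RefSeq.

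Genotypes were compared with edgeR 4.0.16 (TMM, filterByExpr, quasi-likelihood test, genotype only, Benjamini-Hochberg over 26790 IDs). CPM used TMM-scaled library sizes. The main fit did not model the experiment. In the replicate block and in the ratios within experiments, the experiment number was taken as a pairing, since the methods speak of a replicate experiment. Deviations of the libraries of an experiment from their genotype means correlated at 0.497. Fold bounds use 3 counts per library, and intervals are exact. Library sizes alone, RLE, DESeq2 1.42.0, no filter, a replicate block, 1 ID per gene and each library left out were alternatives, and other thresholds and a common depth were tried for detection. R 4.3.3, Python 3.11.15, numpy 2.4.6, pandas 2.3.3, scipy 1.17.1 and matplotlib 3.10.9 were used, and the edgeR step was tested on simulated data.

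The members, gene lists and rule for named genes were chosen with earlier results of these data known. The rule names every called receptor, the 6 highest in WT and in Aire-KO, the 3 lowest log2 fold changes, every receptor with a d3′UTR, and genes of the transduction, MHC and formyl peptide receptor lists. Others named were chosen after their values were seen. The lists were vomeronasal transduction, vomeronasal MHC, formyl peptide receptors, vomeronasal transcription factors, olfactory transduction, mTEChi, sensory neurons, neurons, thymocytes, dendritic cells and macrophages, cortical epithelial cells and fibroblasts.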

Additional observations from a re-analysis of the deposited data

How the results depend on the processing

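The share of receptor genes detected depended on the minimum. In WT replicates 1 and 2 it was 50.8% and 23.4% at 3 counts, 72.9% and 36.4% at 1 count and 17.8% and 7.34% at 10 counts, and in Aire-KO replicates 1 and 2 it was 13.6% and 8.19%, 31.4% and 17.5%, and 3.67% and 2.82%. At the depth of the smallest library WT replicate 1 fell to 36.8% and the Aire-KO libraries to 9.16% and 4.39%. Both WT shares stayed above both Aire-KO shares at each of these settings.

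The number of receptor IDs called was 2 and became 7 with library sizes alone, 7 with DESeq2, 1 without the filter on low counts and 5 with the replicate block, and it ranged from 0 (without WT replicate 1) to 11 (without Aire-KO replicate 1) when a library was left out. It stayed at 2 with RLE factors and with 1 ID per gene. Where a genotype was left with 1 library, that library was assumed to vary like the other group.

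The ratio of mean summed Vmn1r levels ranged from 3.59 to 21.1 when a library was left out. That of Vmn2r was 1.36 and ranged from 0.888 to 2.87, falling to 0.936 without WT replicate 1 and to 0.888 without Aire-KO replicate 2, so its direction rested on those libraries. It was 2.31 without Vmn2r57. Scaling by library sizes alone gave 7.85 and 1.72.

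Of 262 refits of single receptors, 231 kept direction and call, 22 gained the call, 4 lost it and 5 changed direction. The direction changed when a library was left out for Vmn2r1 (log2 fold change from −0.0521, without WT replicate 1, to 2.30), Vmn2r126 (−1.53 to 0.45, without Aire-KO replicate 1), Vmn2r18 (−2.38 to 0.19, without WT replicate 2) and the non-coding ID of Vmn2r29 (−0.77 to 0.31, without Aire-KO replicate 1), which was also at 0.0011 with library sizes alone. Library sizes alone moved the median of all IDs to 0.26. Among the receptors, the block changed the call of Vmn2r2, Vmn2r7 and Vmn2r57 and of no other ID tested. The ratio of Vmn1r51 stayed at 0 with feature lengths less 49 bp. The cause of these changes was not tested. Many receptors held no read in a given library. Any count was held by 258 of 354 in WT replicate 1 and 129 in WT replicate 2. In Aire-KO replicate 1 it was 111, and in Aire-KO replicate 2, the deepest library, it was 62.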
